A study of Drosophila melanogaster with 2 samples.

Results

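The 10 glycolytic enzyme genes described here are Hex-A, Pfk, Ald1, Tpi, Gapdh1, Gapdh2, Pgk, Eno, PyK and Ldh of Drosophila melanogaster, taken by name as genes of the pathway from 13968 annotated protein-coding genes, among 18277 genes in all. For each, the peaks of the transcription factor Bteb2 were read at every transcription start site (TSS) and along the gene. Bteb2, the product of Klf15, was carried by a transgenic line as a fusion to enhanced green fluorescent protein (GFP), and chromatin was immunoprecipitated with an antibody against GFP and sequenced. The samples form 1 group of 2 libraries, called biological replicates 1 and 3 in the labels, from whole embryos of both sexes collected at 4 to 20 h. The labels do not say how these replicates were raised or collected, so their spread may in part be technical. There was no contrast between conditions, and no control library was analysed here, so regions that recur whatever protein is tagged were not told apart from peaks of Bteb2. Whole embryos mix all cell types and many stages, and a peak does not show in which cells it arose.

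Glycolysis breaks glucose down to pyruvate in the cytosol. In the preparatory steps hexokinase, phosphofructokinase, aldolase and triose-phosphate isomerase turn glucose into triose phosphates at the cost of ATP, and in the payoff steps glyceraldehyde-3-phosphate dehydrogenase (GAPDH), phosphoglycerate kinase, enolase and pyruvate kinase carry these to pyruvate and yield ATP. Lactate dehydrogenase then reduces pyruvate to lactate and restores the NAD+ that GAPDH consumes. In fly embryos the genes of the pathway are known to be raised together in mid-embryogenesis under the nuclear receptor ERR. Bteb2 belongs to the KLF family of zinc finger proteins, known for CACCC-type and GC-rich sites.

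Sequences under peaks of the 7 genes with a peak in the authors' reproducible set are shown because they are what lies beneath the summits described in the results. Not every such peak is printed. For Pgk the windows of the peaks of ranks 879, 1802 and 2059 are left out. Each is read 5′ to 3′ on the strand of its gene from the Release 6 genome of RefSeq. The windows reach 100 bp to either side of the summit, and those of Eno, Tpi and PyK are shorter because each is cut at the nearest annotated UTR base, and what lies beyond it is left off too. Capitals mark matches on either strand to the TATA box word TATAAA, to GAGAG as read by GAGA factor, to ATCGAT from the core of the DRE, or to the forkhead word TGTTTAC, and a window all in lower case held none of the 11 motifs searched. The Gapdh2 window is chrX:15867882-15868082, that of Hex-A chrX:9585397-9585597, that of Eno chr2L:1727881-1728053 and that of Ldh chr3L:6262792-6262992. The strongest peak in Pgk gave chr2L:2751898-2752098 and the peak upstream of the third TSS chr2L:2750349-2750549. Tpi has chr3R:30134737-30134855 and PyK chr3R:22367374-22367484.
Gapdh2: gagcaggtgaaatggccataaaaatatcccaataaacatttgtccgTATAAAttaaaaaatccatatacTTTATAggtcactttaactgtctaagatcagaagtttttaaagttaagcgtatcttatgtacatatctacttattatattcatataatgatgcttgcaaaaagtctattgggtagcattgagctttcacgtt
Hex-A: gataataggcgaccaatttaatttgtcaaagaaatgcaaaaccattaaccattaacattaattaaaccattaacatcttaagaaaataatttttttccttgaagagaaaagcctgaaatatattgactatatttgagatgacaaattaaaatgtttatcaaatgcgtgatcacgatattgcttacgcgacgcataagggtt
Eno: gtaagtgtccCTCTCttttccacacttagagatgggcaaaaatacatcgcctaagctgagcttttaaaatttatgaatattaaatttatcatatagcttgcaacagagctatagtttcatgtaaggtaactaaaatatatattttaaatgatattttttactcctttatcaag
Ldh: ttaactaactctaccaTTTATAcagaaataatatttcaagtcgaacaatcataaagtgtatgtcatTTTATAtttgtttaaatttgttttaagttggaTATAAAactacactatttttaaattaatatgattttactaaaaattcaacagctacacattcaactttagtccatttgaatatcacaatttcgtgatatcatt
Pgk, strongest peak: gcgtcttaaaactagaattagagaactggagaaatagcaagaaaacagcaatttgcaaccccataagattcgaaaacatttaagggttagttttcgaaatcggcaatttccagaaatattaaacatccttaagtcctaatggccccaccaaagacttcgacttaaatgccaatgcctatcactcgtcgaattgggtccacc
Pgk, peak upstream of the third TSS: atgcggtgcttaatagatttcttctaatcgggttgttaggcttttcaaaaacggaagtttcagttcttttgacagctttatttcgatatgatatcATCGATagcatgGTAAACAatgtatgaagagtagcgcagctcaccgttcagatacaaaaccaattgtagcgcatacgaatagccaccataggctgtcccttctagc
Tpi: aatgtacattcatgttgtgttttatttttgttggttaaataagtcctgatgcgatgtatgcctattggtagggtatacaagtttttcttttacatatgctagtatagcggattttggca
PyK: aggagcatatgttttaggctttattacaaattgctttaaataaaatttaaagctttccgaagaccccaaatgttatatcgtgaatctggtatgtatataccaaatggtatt

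The authors' peak lists on the dm6 build comprised an optimal set of 3350 peaks, kept for their reproducibility between the replicates, and relaxed lists of 30000 candidate peaks each for the pooled libraries, for replicate 1 and for replicate 3. The optimal set held the 3350 strongest peaks of the pooled list, and its weakest member had a signal of 65.9, in the authors' own peak score. That score has another scale in each list, so peaks are compared by rank within a list, where rank 1 is the strongest. The −log10 q-value was 3.95 for every optimal peak and did not order them. The relaxed lists reach down to −log10 q-values near 0 and may hold background. The number of reads per library was not analysed here, and the depth behind each peak is unknown.

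Of the 10 genes, 7 had an optimal summit within 1000 bp of a TSS. They were Hex-A, Tpi, Gapdh2, Pgk, Eno, PyK and Ldh, and Pfk, Ald1 and Gapdh1 had none. Among the 13958 other protein-coding genes the share was 20.4%. Each of the 10 genes has 2 to 5 annotated TSSs, and a gene with several TSSs has more places to be near a summit. Among other protein-coding genes with at least 2 TSSs the share was 33.4%, and among those with 3 to 5 it was 43.1%. With the relaxed pooled list, 9 of the 10 genes had a summit within 1000 bp of a TSS, all but Gapdh1, beside 62.4% of the other protein-coding genes. These counts describe a short list of related genes, and no test was made on them. The list was chosen with earlier results of these data known. Of 16 further glycolytic and gluconeogenic genes, 2 had an optimal promoter summit (12.5%), so the share of the 10 genes does not stand for the whole pathway.

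**Figure D1:**
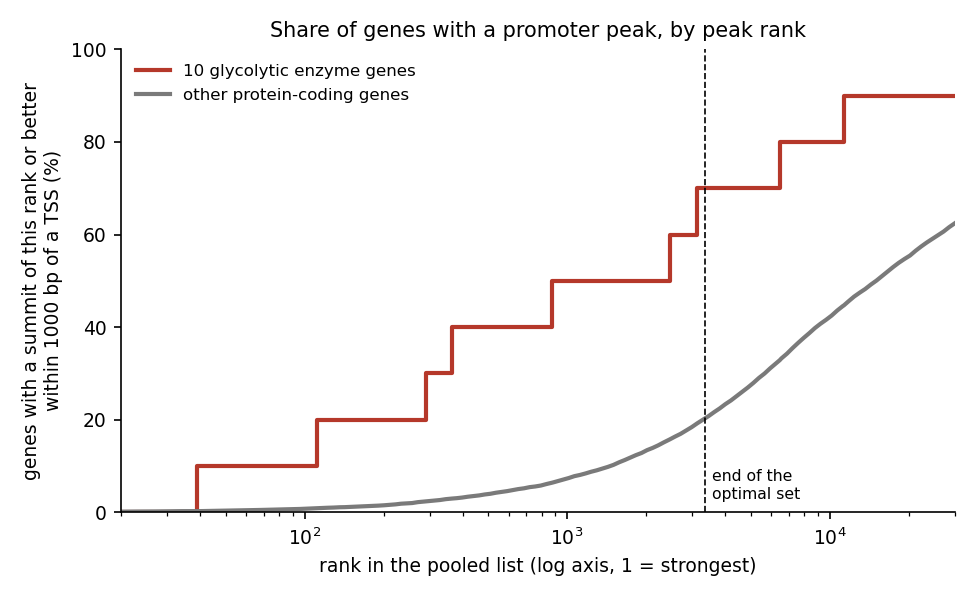
Share of genes (%) with a summit of a given rank or better within 1000 bp of a TSS, against rank in the pooled list (log axis), for the 10 glycolytic enzyme genes (red steps) and the other protein-coding genes (grey line). At the end of the optimal set (dashed line, rank 3350) the shares are 7 of 10 and 20.4%.

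The peaks of these genes spread over nearly the whole range of the optimal set. Gapdh2 had rank 39, Hex-A 111, Eno 289, Ldh 364, Pgk 879, Tpi 2468 and PyK 3133 for the strongest summit within 1000 bp of a TSS. Of the 2848 protein-coding genes with an optimal summit that near, the median of the same rank was 1485, with quartiles of 657 and 2362. Gapdh2, Hex-A, Eno and Ldh were stronger than the first quartile of such genes, and Tpi and PyK weaker than the last. In all, 39 protein-coding genes had a stronger promoter peak than Gapdh2, 127 a stronger one than Hex-A, and 2690 a stronger one than PyK.

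Hexokinase phosphorylates glucose at the entry to the pathway, and Hex-A (FBgn0001186, chrX:9585675-9589813, plus strand) had a single optimal peak at chrX:9585410-9585634. Its summit lay 178 bp upstream of the first TSS and 393 bp upstream of the second, with a signal of 350 and rank 111 in the pooled list. The peak had rank 102 in replicate 1 and rank 164 in replicate 3, and the summits of the replicates lay within 5 bp of the pooled one. No TSS of another gene was nearer, since lncRNA:CR45541 began 1320 bp from the summit. Of the 3 weaker pooled summits along the gene, at ranks 7400, 9505 and 26539, 2 lay in the 3′ UTR and 1 in a coding exon. The summit of rank 7400 was nearer to the TSS of lncRNA:CR45542, at 1310 bp, than to a TSS of Hex-A, at 3419 bp. Replicate 3 also held a summit of rank 2585, 825 bp upstream of the first TSS and 673 bp from the TSS of lncRNA:CR45541.

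Phosphofructokinase, encoded by Pfk (FBgn0003071, chr2R:10109740-10117457, plus strand), catalyses the committed step. Pfk had no optimal summit within 1000 bp of either TSS or in its body. The nearest one, of rank 1922, lay 170 bp beyond the 3′ end of the gene and 67 bp upstream of the TSS of the neighbour dmpd. Weaker pooled summits lay 718 bp downstream of the second TSS, at rank 11335, and 896 bp upstream of the first, at rank 14480, within the 3′ UTR of 14-3-3zeta. The peak of rank 11335 had rank 5213 in replicate 1, and replicate 3 held no summit within 1000 bp of that TSS.

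Aldolase splits the hexose into trioses. Ald1 (FBgn0000064, chr3R:26254069-26261591, minus strand) had its nearest optimal summit 19128 bp from a TSS, and 5 weaker pooled summits lay at or in the gene, at ranks of 6464 to 29487. The strongest was 29 bp upstream of the first TSS, with a signal of 43.1, and the next, of rank 6929, lay in the 5′ UTR 205 bp downstream of the fourth TSS. The replicates differed at this gene. The peak at the first TSS had rank 3278 in replicate 1, and replicate 3 held no summit within 1000 bp of that TSS. The strongest promoter summit of Ald1 in replicate 3, at rank 8534, lay in an intron 310 bp downstream of the fourth TSS. Another replicate 3 summit, of rank 12988, lay in the 5′ UTR 89 bp downstream of the same TSS.

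Triose-phosphate isomerase interconverts the trioses. Tpi (FBgn0086355, chr3R:30132981-30134599, minus strand) had 1 optimal peak, chr3R:30134629-30135044, with a signal of 79.4 and rank 2468. Its summit lay 238 bp upstream of the first TSS, and the TSS of the antisense gene asRNA:CR46082 was nearer, at 171 bp. Tpi had rank 1992 in replicate 1 and rank 3479 in replicate 3, so replicate 3 put it just past its own 3350 strongest peaks.

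**Figure D2:**
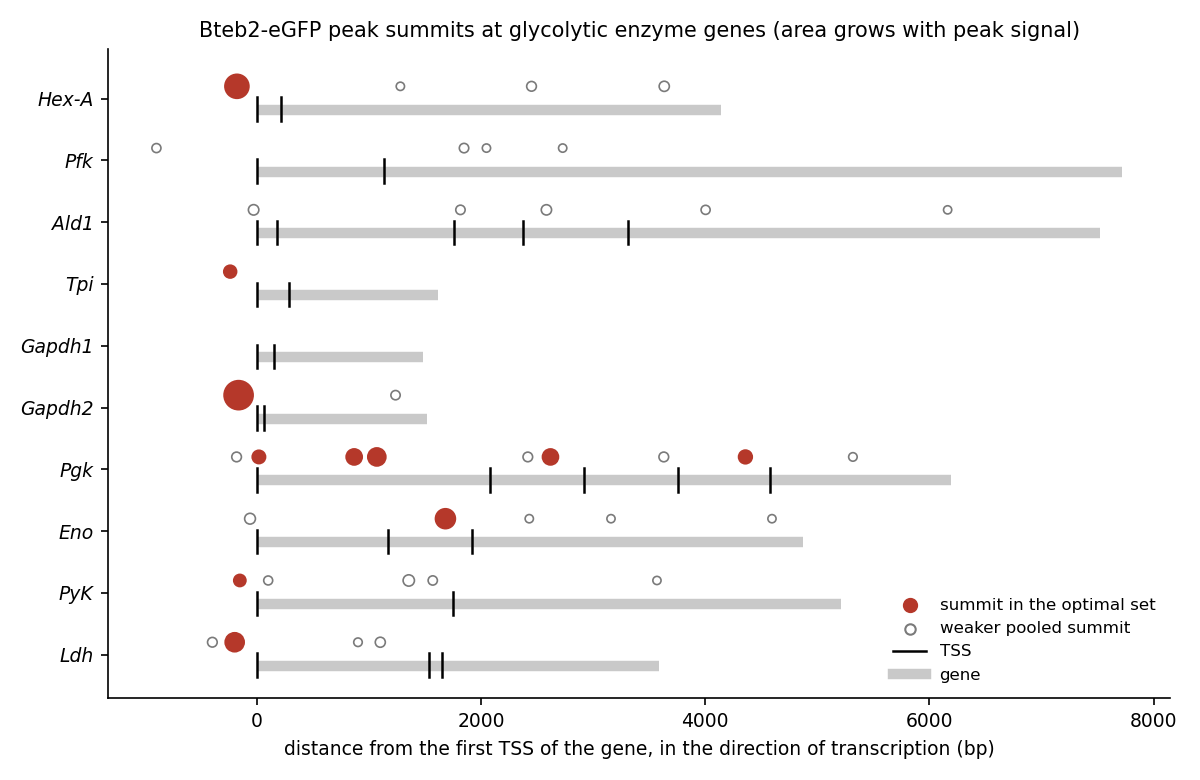
Summits of the pooled list at the 10 genes, by distance (bp) from the first TSS in the direction of transcription; grey bars are the genes, black ticks the TSSs, filled circles optimal summits and open circles weaker ones, with area growing with signal. Filled summits sit 152 to 238 bp upstream of the first TSS in Hex-A, Tpi, Gapdh2, PyK and Ldh, inside the gene in Eno, and at 5 places in Pgk.

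The 2 GAPDH genes stood at opposite ends of the list. GAPDH oxidises and phosphorylates glyceraldehyde 3-phosphate, the first payoff step. Gapdh2 (FBgn0001092, chrX:15868145-15869661, plus strand) had the strongest promoter peak of the 10 genes, chrX:15867817-15868161, whose summit lay 163 bp upstream of the first TSS and 229 bp upstream of the second. Its signal in the pooled list was 526, at rank 39, with rank 36 in replicate 1 and rank 50 in replicate 3. The nearest TSS of another gene, CG16952, was 2201 bp away. A weaker pooled summit of rank 12254 lay in the 3′ UTR, 801 bp from the TSS of CG16952 and 1171 bp from the nearest TSS of Gapdh2.

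Gapdh1 (FBgn0001091, chr2R:7791901-7793380, minus strand) had no summit in the pooled list within 1000 bp of a TSS or in its body, and the nearest one was 1746 bp from a TSS. Each replicate listed 1 weak summit in the gene, of rank 22350 in replicate 1 and 24323 in replicate 3, at 516 and 812 bp downstream of the second TSS. Near-identical copies can share reads, and the sources used here do not give how reads with several matches were treated. The longest run shared exactly by the Gapdh2 peak and the Gapdh1 locus with 1000 bp on either side was 12 bp, whereas the gene Gapdh2 itself shared a run of 38 bp with that locus. The Gapdh2 peak lies in sequence that Gapdh1 does not repeat beyond that length.

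Phosphoglycerate kinase makes the first ATP of the payoff steps, and Pgk (FBgn0250906, chr2L:2746880-2753068, minus strand) differed from the other 9 genes in its number of peaks. It had 5 optimal summits, all inside the gene, where the other 6 genes with an optimal summit had 1 each. Of the other protein-coding genes, 40 had at least 5 optimal summits near a TSS or in the body, or 0.287%. Among the 11068 that are no longer than the 6189 bp of Pgk there were 0. Both cuts are the values of Pgk itself and the number of TSSs was not matched, so these counts do not measure how unusual Pgk is. In the direction of transcription the first summit lay 18 bp downstream of the first TSS, at rank 2059. The next lay 868 bp downstream of that TSS, at rank 879, and the strongest a little further on, at rank 477, both in an intron. The peaks of ranks 879 and 477, chr2L:2751992-2752407 and chr2L:2751790-2752205, overlap, so the 5 summits do not mark 5 separate regions. The fourth summit lay 302 bp upstream of the third TSS, at rank 900, and the fifth 223 bp upstream of the fifth TSS in the 5′ UTR, at rank 1802.

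The neighbour Bacc overlaps Pgk on the opposite strand, and 2 of its 3 TSSs lie inside Pgk, at 623 and 268 bp from the first TSS of Pgk. The summits of ranks 477 and 879 were nearer to a TSS of Bacc, at 447 and 245 bp, than to any TSS of Pgk. The summit of rank 2059, 18 bp inside Pgk, was 183 bp from a TSS of Bacc. The summits of ranks 900 and 1802 lay 1996 and 3735 bp from the nearest TSS of Bacc. The strongest summit was 1009 bp from the nearest Pgk TSS and so fell just outside the 1000 bp window, while the one at 868 bp fell inside. In replicate 1 the same peak, at rank 378, was 995 bp away and counted. The 5 peaks had ranks of 378 to 2115 in replicate 1 and 719 to 3034 in replicate 3.

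Enolase forms phosphoenolpyruvate. The peak of Eno (FBgn0000579, chr2L:1724768-1729636, minus strand) at chr2L:1727875-1728077 had a signal of 232 and rank 289. It was not at the first TSS: its summit lay in an intron, 237 bp upstream of the third TSS, from which transcripts Eno-RA and Eno-RF start. At the first TSS there was a weaker summit 61 bp upstream, of rank 5465, with rank 3848 in replicate 1. In replicate 3 a summit 79 bp upstream of the first TSS had only rank 26062. The strongest replicate 3 summit within 1000 bp of that TSS was 949 bp away, of rank 12106, and lay 45 bp from the TSS of Rrp40. The peak at the third TSS was more even, at rank 339 in replicate 1 and rank 224 in replicate 3.

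Pyruvate kinase closes the pathway. PyK (FBgn0267385, chr3R:22367536-22372746, plus strand) had the weakest optimal promoter peak of the 7 genes, chr3R:22367176-22367591, with a signal of 68.5 and rank 3133. The summit lay 152 bp upstream of the first TSS of PyK and 11 bp from that of Polr3F, a divergent gene for an RNA polymerase III subunit, so the peak is nearer to the neighbour. A second peak, of rank 4340 and a signal of 55.8, was the strongest summit of the 10 genes outside the optimal set, and it lay in an intron 391 bp upstream of the TSS of transcript PyK-RA. The replicates ranked these 2 peaks in opposite order. Replicate 1 had rank 3025 for the promoter peak and 4921 for the intron peak, and replicate 3 had rank 4028 for the promoter peak and 2204 for the intron peak.

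Lactate dehydrogenase is encoded by Ldh (FBgn0001258, chr3L:6259105-6262694, minus strand). Its optimal peak, chr3L:6262735-6262912, had a signal of 209 and rank 364, with the summit 198 bp upstream of the first TSS. It had rank 533 in replicate 1 and rank 232 in replicate 3, and the summit of replicate 1 was displaced by 89 bp, to 109 bp upstream of the TSS. Replicate 1 also held a second summit on the other side of the pooled one, 311 bp upstream of the TSS, at rank 999. The TSS of lncRNA:CR44522 was farther from the pooled summit than that of Ldh, at 507 bp. The internal TSSs of transcripts Ldh-RD and Ldh-RC had no summit stronger than one of rank 7921 within 1000 bp.

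Across the 7 genes, the strongest summit near a TSS was upstream of that TSS in 6, at 152 to 238 bp, and downstream only in Pgk. Of the 2841 other protein-coding genes with such a summit, 84.6% had it upstream, with a median position of -128 bp and quartiles of -246 and -46 bp. In 5 of the 10 genes an optimal summit had no TSS of another gene nearer to it, all but Tpi and PyK of the 7, beside 14.1% of the other protein-coding genes. Optimal summits in the gene body were found in Pgk and Eno, 2 of 10, beside 9.6% of the other protein-coding genes. Pooled summits of any rank lay in the body of 8 of the 10 genes, beside 43.3% of the others.

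Each of the 11 optimal peaks of the 7 genes overlapped a peak in both replicates, as did 99.9% of all optimal peaks, which were chosen for that. Of the 28 weaker pooled peaks at the 10 genes, 16 overlapped a peak in both replicates, 10 in replicate 1 only, 1 in replicate 3 only and 1 in neither, beside 57.0% in both over all 26650 weaker pooled peaks. The 16 became 14 when at least 50% of the shorter peak had to overlap, and 10 when summits had to lie within 100 bp. The shares over all weaker pooled peaks were not computed for these 2 stricter ways. Taking the 3350 strongest peaks of a replicate in place of the optimal set, 8 of the 10 genes had a promoter summit in replicate 1, the 7 and Ald1, beside 20.2% of the other protein-coding genes. In replicate 3 it was 6 of the 10, without Tpi, beside 20.1% of the others, and PyK counted there through its intron peak. Gapdh2, Hex-A, Eno, Ldh and Pgk were among the 1675 strongest in all 3 of these lists. With the 1675 strongest optimal peaks alone the share of the other protein-coding genes was 11.4%. Their share for all 3 lists together was not computed.

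**Figure D3:**
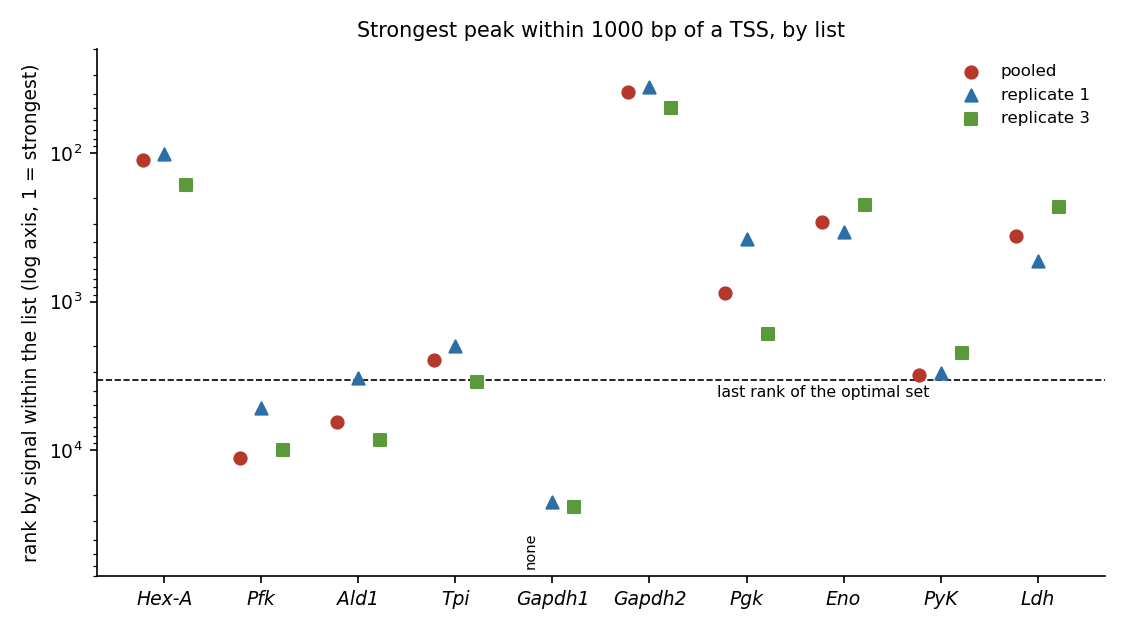
Rank by signal (log axis, 1 = strongest) of the strongest peak within 1000 bp of a TSS of each gene in the pooled list, replicate 1 and replicate 3; each list has its own scale of signal and the same length of 30000. Gapdh2 and Hex-A stay between ranks 36 and 164, Tpi and PyK lie around the dashed line at rank 3350, and Gapdh1 has no pooled peak.

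The windows of the 11 optimal summits were searched on both strands for 11 short motifs, and single matches are descriptions of letters, not sites. Among the 8 sequences printed above, TATAAA stood in those of Gapdh2, at 2 places, and Ldh, at 3, and GAGAG in that of Eno, at 1. Counting all 11 windows, TATAAA was in 3, beside 34.2% of all optimal windows, and GAGAG in 3, beside 21.1%. The motif CACCC, of the type known for KLF proteins, was in 1 window, under the fifth Pgk summit, beside 15.3% of all optimal windows, and GGGCGG was in 0, beside 2.96%. The DRE TATCGATA, read by the factor Dref, was in 0 windows, beside 5.01%, its inner ATCGAT in 1, a Pgk window, beside 13.6%, and the word GGTCACACT, known as motif 1, in 0, beside 2.09%. The ERR half-site TCAAGGTCA was in 0 windows, beside 0.0299%, and the E-box CACGTG in 0, beside 2.42%. TGTTTAC was in 1, that of the Pgk peak upstream of the third TSS, beside 8.09%, and ACACTG in 1, under the fifth Pgk summit, beside 19.9%. In 4 windows, those of Hex-A, Tpi, PyK and the strongest Pgk peak, none of the 11 was found. The share of all optimal windows without any of the 11 was not computed, so whether 4 is many is unknown.

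Outside Pgk, the windows all had a GC content below the mean of the optimal set. It was 22.4% at Ldh, 24.9% at PyK, 28.9% at Hex-A, 29.9% at Gapdh2, 31.3% at Eno and 33.8% at Tpi. In the 5 Pgk windows it ranged over 39.3% to 48.3%. The mean over all 3350 optimal windows was 36.1% ± 6.62 (SD over windows), so Ldh and PyK lay more than 1 SD below it, as did Hex-A, while the other windows outside Pgk were lower by less than that. The part of base composition in the peaks was not tested.

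Of 16 further glycolytic and gluconeogenic genes, 2 had an optimal promoter summit (12.5%), beside 20.4% of the other protein-coding genes. Pgi, for glucose-phosphate isomerase, had it at rank 2534 and 55 bp upstream of the TSS. Pfrx, for an enzyme that sets the level of an activator of phosphofructokinase, had it at rank 3306 and 213 bp upstream. With the relaxed pooled list it was 6 of 16, beside 62.4% of the other protein-coding genes. These counts are small, and no share matched by number of TSSs was computed for this list. Set beside their relatives among the 10 genes, Hex-A had rank 111 and Hex-C rank 23144, and the testis hexokinases Hex-t1 and Hex-t2 and the aldolase Ald2 had no pooled promoter summit. Of the phosphoglycerate mutase genes, Pglym78 had rank 8090 and Pglym87 no pooled promoter summit. Taking the 10 genes with 7 others of named enzymes, 8 of the 11 enzyme steps had at least 1 gene with an optimal promoter peak, and the steps without one were phosphofructokinase, aldolase and phosphoglycerate mutase. Of the 7 others only 1, Pgi, had such a peak, so the remaining steps were counted through the 10 genes already described. A step with several genes has more chances to be counted, and the share for like groups of other genes was not computed.

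**Figure D4:**
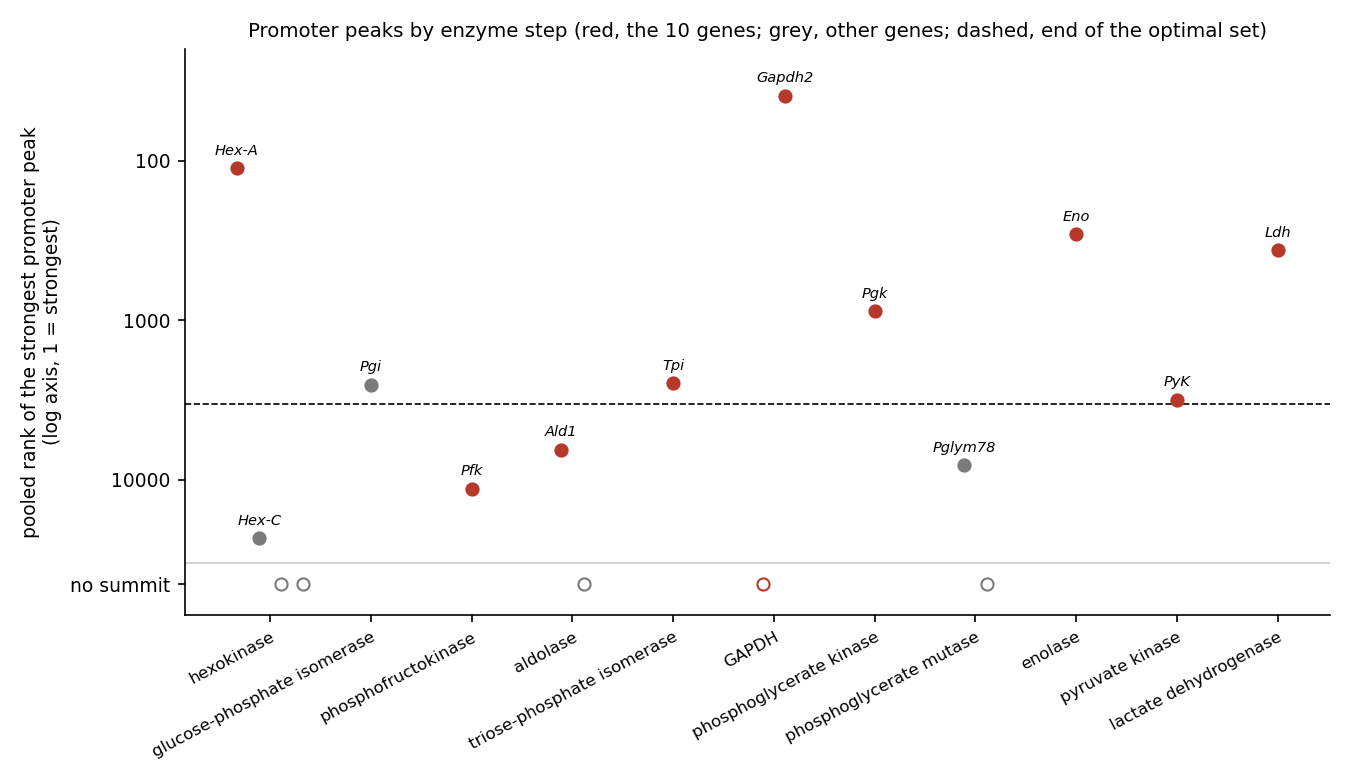
Pooled rank (log axis, 1 = strongest) of the strongest peak within 1000 bp of a TSS for genes of named enzymes, by step of the pathway; red points are the 10 genes, grey points 7 others, open points below the grey line have no pooled summit, and the dashed line is rank 3350. At the hexokinase and GAPDH steps 1 gene (Hex-A, Gapdh2) is far up and its relatives are low or without a summit.

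Of 23 genes that link carbohydrate stores and side branches to the pathway, 7 had an optimal promoter summit, beside 20.4% of the other protein-coding genes, and all 23 a relaxed one, beside 62.4%. The strongest were at Treh, for trehalase, at rank 231, where the TSS of CG10527 was nearer, and at Pgm1, for phosphoglucomutase, at rank 343. Gpdh1, for the cytosolic glycerol-3-phosphate dehydrogenase that like Ldh restores NAD+, had rank 420, and Glyp, for glycogen phosphorylase, rank 645. Taldo, for transaldolase, had rank 2328, and PCB, for pyruvate carboxylase, rank 2649, with the TSS of asRNA:CR44293 nearer. Together with the 16 further glycolytic genes this made 9 of 39, or 23.1%, near the 20.4% of the other protein-coding genes. Of 10 known regulators of carbohydrate metabolism, 2 had an optimal promoter summit, also near that share: bigmax, for a partner of the sugar sensor Mondo, at rank 402, and ERR, at rank 835, where the TSS of Atg18a lay 36 bp from the summit, nearer than that of ERR.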

How the data were processed

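Anti-GFP chromatin immunoprecipitation of 1 group of 2 libraries was analysed from 4 deposited peak lists on dm6, in narrowPeak column order. The authors' signal value of each peak (column 7) and the −log10 q-value of their peak caller (column 9) are per the deposited columns. The relaxed lists are per replicate and pooled, and the optimal set was kept by the irreproducible discovery rate method, per the labels and deposited notes. Which aligner, caller, duplicate filter and threshold they used: not given in the sources used here. Lists on dm3 were not used, since coordinates were not converted between builds.

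Summits (1-based) were set against all TSSs of Ensembl release 115, without transposable elements, with Python 3.11.15, NumPy 2.4.6, pandas 2.3.3 and matplotlib 3.10.9. A gene had a promoter peak when a summit lay within 1000 bp of a TSS. Replicate peaks were matched by 1 bp of overlap, taking the nearest summit. Named genes were the 10 members, each neighbour with a TSS nearer to an optimal member summit, and up to 6 genes per other list with the strongest optimal promoter peaks. Hex-C, Hex-t1, Hex-t2, Ald2, Pglym78, Pglym87, dmpd, and neighbours given for distance alone, were added after their values were seen. Of 50 symbols in the other lists, 49 matched, 2 of them through synonyms. The members and lists were chosen with earlier results of these data known. Alternatives varied the window, the TSSs, the list, the matching and the replicate, and the code was tested on simulated peaks. The p-values of a test were not computed, as the design has 1 group.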

Additional observations from a re-analysis of the deposited data

How the results depend on the processing

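The main count, 7 of 10 genes with an optimal promoter summit, was 5 to 8 under the 10 alternatives tried, and the share of the other protein-coding genes moved too. The count was 5 without summits nearer to another gene's TSS (14.1% of the others), 5 with the stronger 1675 optimal peaks (11.4%) and 6 with the outermost gene end as the TSS (18.7%). It was 7 within 500 bp (17.8%) or 2000 bp (24.7%), and 8 with the strongest 10000 pooled peaks, where the share of the others was 42.1% in place of 20.4%. With the strongest 3350 peaks of 1 replicate it was 6 without replicate 1 (20.1%) and 8 without replicate 3 (20.2%). The 9 genes with a relaxed pooled summit became 8 to 10 (50% to 70.2% of the others). The count was 10 without replicate 3 (62.7%) and 10 without replicate 1 (62.3%). The 9 of 39 other carbohydrate genes became 8 to 13 (14.1% to 24.7% of the other coding genes), with 9 without replicate 3 (20.2%) and 12 without replicate 1 (20.1%). The count of 2 genes with an optimal summit in the body became 8 with the gene span widened by 1000 bp, which takes in promoters, and 8 with all pooled relaxed peaks, a list of 30000 in place of 3350. The shares of the other protein-coding genes were then 26% and 43.3%, in place of 9.6%. The count in the body was 2 without replicate 3, beside 9.92% of the others, and 3 without replicate 1, beside 9.39%. The 11 optimal peaks were found in both replicates under each way of matching. No paired analysis was possible because there is 1 group. The depth of the libraries is unknown, so what it limits could not be stated.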

Other observations

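Some genes of the other lists lay just past the last optimal rank of 3350. The strongest promoter peak of Mpc1, for a subunit of the mitochondrial pyruvate carrier, had rank 3375, with the TSS of CG42613 17 bp from its summit. AGBE, for the glycogen branching enzyme, had rank 3749, and foxo, for a transcription factor of insulin signalling, rank 3813. Mondo and crc, genes of transcription factors, shared the rank 4709 and thus a single peak. These 5 genes were chosen after their values were seen.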
